A study of Mus musculus with 6 samples.

Results

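The genes described here encode 10 molecules through which macrophages and other antigen-presenting cells raise or restrain T cell responses: Havcr2, Lgals9, Cd274, Pdcd1lg2, Cd80, Cd86, Cd40, Icosl, Cd276 and Ido1. They were found as all non-control probes on a 1-colour Agilent mouse array whose gene name is one of these symbols. This gave 14 probes, of which 11, for 9 of the 10 genes, were well above background on at least 2 of 5 arrays, as were 28271 of 55668 probes in all. Each of these 11 probes was well above background on all 5 arrays.

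The study compared WT with c-Maf KO macrophages, 3 samples each, to ask which genes depend on c-Maf, the transcription factor made from Maf, in M2-like cells. The cells were bone-marrow-type macrophages (BMM) that the labels call polarized and M2-like, obtained from mice whose blood system came from transplanted WT or c-Maf KO fetal liver. All were grown in DMEM with serum and M-CSF, the macrophage growth factor, at 10 ng/ml, topped up daily from day 4; no other cytokine is named. The labels give neither the c-Maf allele, nor the strain, age or sex of the mice, nor which host cells remained, and they do not say whether replicates came from separate mice, so all p-values here reflect sample-to-sample spread alone, and that spread may be technical. The file names of 2 WT samples, replicates 1 and 3, carry the same tag, so WT may hold fewer than 3 independent samples.

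T cells need a second signal beside the antigen receptor. The B7 proteins CD80 and CD86 give it by binding CD28, and are taken up by the inhibitory receptor CTLA-4. PD-L1 and PD-L2 instead engage the inhibitory receptor PD-1, Tim-3 marks exhausted T cells but is also carried by macrophages and dendritic cells, and indoleamine dioxygenase depletes tryptophan. Macrophages carry several of these at once, so the balance between them shapes what a T cell receives.

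Signal means the log2 of spot intensity over the 75th percentile of its array, for the 5 arrays with scanner files (WT replicates 1 to 3, c-Maf KO replicates 2 and 3). Ratios are the log2 of the authors' deposited value table, in which each of the 6 samples is set against the median of that probe. How the authors scaled arrays to each other is not stated in the sources used here. Values are listed in the order of the replicate numbers, 1 to 3 (2 and 3 for c-Maf KO signal). Differences are c-Maf KO minus WT, tested with limma over all 28271 probes with Benjamini-Hochberg adjustment and a threshold of 0.05. The 5-array fit and the 6-sample fit share 5 arrays and are not independent. Maf itself checked the labels: its main probe had ratios of 1.92, 1.98 and 2.03 in WT and -2.22, -2.36 and -1.92 in c-Maf KO. The difference was -4.14 (adjusted p = 0.000826). A second Maf probe had ratios of 1.74 to 1.83 in WT and -3.04 to -1.74 in c-Maf KO, and was well above background on 3 arrays; which part of the gene was deleted is not given.

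On the arrays, the 75th percentile of intensity was 410.8 to 494.5 and 48.9% to 50.5% of probes were well above background, with no saturated spot; the number of arrays limits the precision. Genotype cannot be told apart from slide position, since row 1 held the WT arrays and row 2 those of c-Maf KO. All 11 macrophage markers measured were well above background on all 5 arrays, Csf1r (the M-CSF receptor) and Cd68 (a lysosomal glycoprotein) included. The labels give the tissue as liver: of 5 hepatocyte markers, Afp alone was detected, and Alb, Apoa1, Ttr and Hnf4a were not well above background on any array.

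No probe of these genes passed the adjusted threshold in either fit. That is 0 of 11, where 0.0212% of all probes passed in the 6-sample fit and 0.0248% in the 5-array fit. At an unadjusted p under 0.05 there were 5 of 11 in the 6-sample fit, all higher in c-Maf KO, against 5.98% of all probes in that direction, and 4 of 11 in the 5-array fit, again all higher, against 4.89%. In the value table, the 3 c-Maf KO samples lay wholly above the 3 WT samples for 6 of 11 probes, those of 4 genes (Havcr2, Lgals9, Pdcd1lg2 and Cd80), where 10.2% of all probes did so. The same number held for the 5 arrays, against 13.2%. No probe lay wholly below, where 9.26% and 16.2% of all probes did. The difference was positive for 9 of 11 probes, with a median of 0.26 against -0.0038 over all probes, and Cd86 and Cd40 were the 2 negative ones. These probes are not independent, since Pdcd1lg2 and Cd80 have 2 each. The genes were also chosen with earlier results of these data known, so the counts describe them and are no independent test against the shares over all probes.

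**Figure D1:**
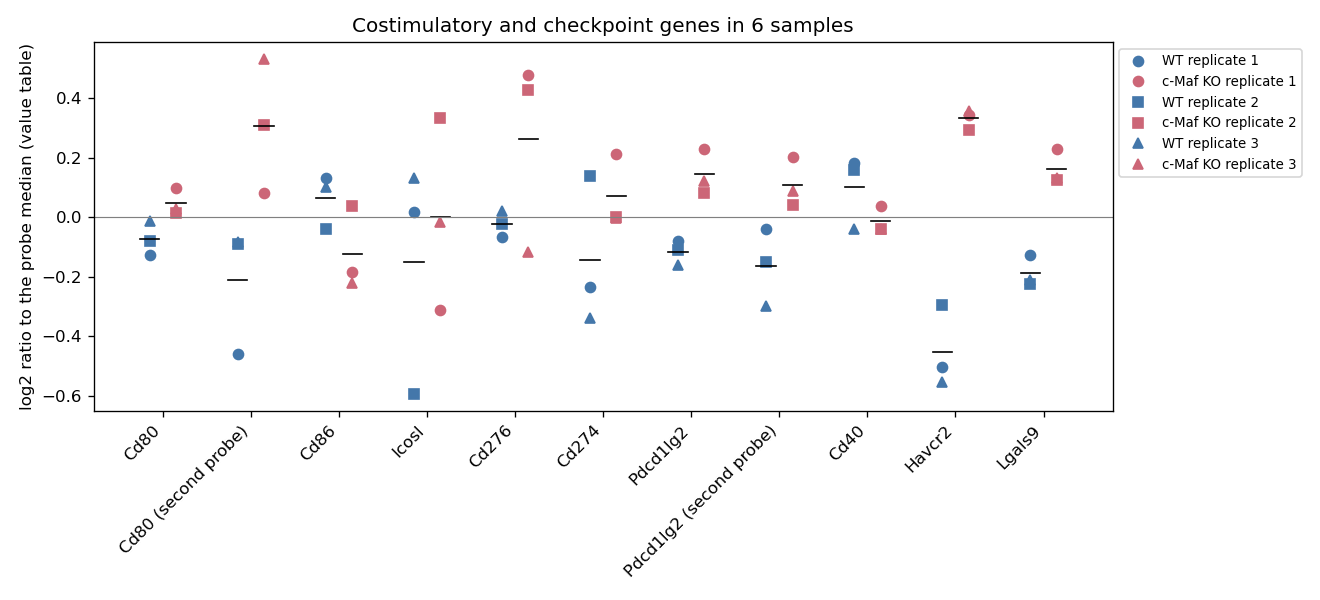
Log2 ratio of each sample to the probe's median in the authors' value table (y axis) for the 11 detected probes (x axis), with WT in blue, c-Maf KO in red, symbols by replicate number and short lines at group means. The c-Maf KO samples lie above all WT samples for Havcr2, Lgals9, both Pdcd1lg2 probes and both Cd80 probes; the groups overlap for the other 5 probes.

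Havcr2, which encodes the inhibitory receptor Tim-3, had the largest difference and the smallest p of these genes. Its 60-base probe lies at chr11:46294675-46294734 on the plus strand (mm9, per the array files, as for all probes here; no annotation of that build was used, so exon or untranslated region is not stated). The probe's first 30 bases are shown so that the measured stretch can be located.

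Havcr2 probe: gctctcatgcagaagggaaaactaatctca

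Its ratios were -0.50, -0.30 and -0.55 in WT and 0.34, 0.30 and 0.36 in c-Maf KO. The c-Maf KO samples lay within 0.064 of each other and above every WT sample. On the arrays the signal was 0.71, 0.92 and 0.64 in WT and 1.49 and 1.57 in c-Maf KO. The difference was 0.78 (SE 0.085, 95% interval 0.58 to 0.99), a 1.72-fold higher level, with an adjusted p of 0.12 by limma (0.233 on the 5 arrays, difference 0.78). By unadjusted p it ranked 21 among 28271 probes. With a trend and robust variance model Havcr2 passed on the 5 arrays (adjusted p = 0.0132) but not in the 6-sample fit (0.0765); with WT replicates 1 and 3 averaged to 1 sample the 6-sample difference was 0.75 (adjusted p = 0.198). In bulk RNA, more cells of a type and more RNA per cell cannot be told apart.

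Lgals9, which encodes galectin-9, a secreted sugar-binding protein reported as a Tim-3 ligand, was 1.27-fold higher in c-Maf KO. Its probe lies on the minus strand at chr11:78776922-78776981.

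Lgals9 probe: atattaccaccgcctgaagaacttgcagga

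Its ratios were -0.13, -0.22 and -0.21 in WT and 0.23, 0.13 and 0.13 in c-Maf KO. The groups did not overlap, and the gap between them was 0.252. The difference was 0.35 (SE 0.064, 95% interval 0.19 to 0.51, adjusted p = 0.189). The signal was 0.11, 0.016 and 0.0068 in WT and 0.35 and 0.37 in c-Maf KO, a difference of 0.31 (adjusted p = 0.353). Within each sample the Havcr2 ratio minus the Lgals9 ratio was -0.38, -0.072 and -0.34 in WT and 0.11, 0.17 and 0.23 in c-Maf KO. This within-sample difference was higher in c-Maf KO by 0.43 without overlap, with an exact two-sided permutation p of 0.1, the smallest that 3 against 3 samples allow, and 0.25 after adjustment over 5 such pairs.

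The PD-1 ligands were both bright. Pdcd1lg2, which encodes PD-L2, was higher in c-Maf KO with both of its probes, while the Cd274 groups, for PD-L1, overlapped. The 2 Pdcd1lg2 probes (chr19:29545473-29545532 and chr19:29545470-29545529, plus strand) are offset by 3 bases and differ at 2 of the 57 bases they share. They are near-copies and give 1 measurement, not 2. Their first 30 bases show the shared stretch of 27 bases in capitals.

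Pdcd1lg2 second probe: atcCTGGCAGCCTCTGAAGTTCTAATTAAC

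Pdcd1lg2 first probe: CTGGCAGCCTCTGAAGTTCTAATTAACtgg

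The first Pdcd1lg2 probe had ratios of -0.081, -0.11 and -0.16 in WT and 0.23, 0.081 and 0.12 in c-Maf KO. The second had ratios of -0.040, -0.15 and -0.30 in WT and 0.20, 0.040 and 0.089 in c-Maf KO. Both put every c-Maf KO sample above every WT sample, with the smallest gap of 0.081 for the second probe. The differences were 0.26 (95% interval 0.099 to 0.425, 1.20-fold, adjusted p = 0.256) and 0.27 (0.055 to 0.49, 1.21-fold, adjusted p = 0.328). The second minus the first probe differed between genotypes by 0.011 (exact permutation p = 0.8, 1 after adjustment).

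Cd274 had ratios of -0.23, 0.14 and -0.34 in WT and 0.21, 0.00087 and -0.00087 in c-Maf KO. WT replicate 2 lay above c-Maf KO replicates 2 and 3, and the WT spread (SD 0.25) exceeded the difference of 0.22 (95% interval -0.13 to 0.56, adjusted p = 0.582). Its signal was 3.46, 3.84 and 3.34 in WT and 3.68 and 3.70 in c-Maf KO. The interval, which reaches 1.48-fold higher in c-Maf KO, includes the 0.26 of Pdcd1lg2. Set against Cd274 within each sample, Pdcd1lg2 differed between genotypes by 0.046 (exact permutation p = 1).

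**Figure D2:**
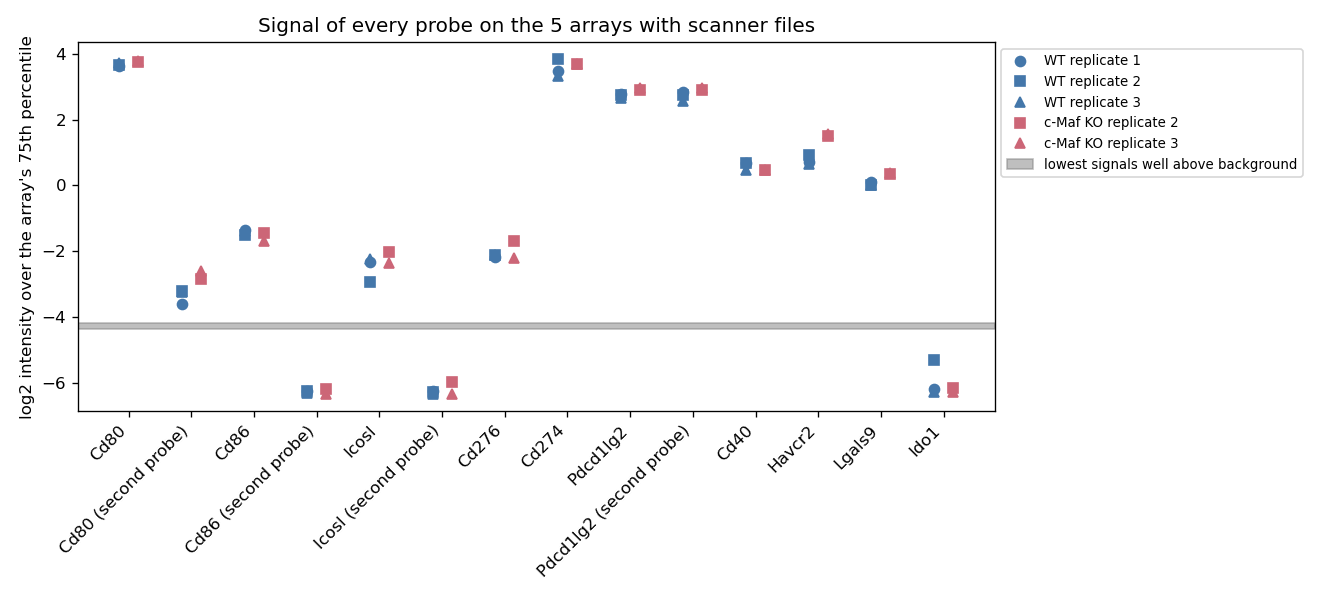
Signal on a log2 scale, relative to the array's 75th percentile (y axis), of all 14 probes (x axis) on the 5 arrays, with WT in blue and c-Maf KO in red; the grey band spans the lowest signals that were well above background, -4.36 to -4.18. The second Cd86 probe, the second Icosl probe and the Ido1 probe lie below the band in every sample; signals of different probes are not comparable with each other.

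Of the ligands that CD28 and CTLA-4 share, Cd80 had positive differences without overlap and Cd86 a negative one with overlap. The 2 Cd80 probes, printed by their first 30 bases because they read different places of the gene, gave different sizes.

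Cd80 first probe: aaaggagaggtgcctagtcttactgcaact

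Cd80 second probe: ttcaatacgactcgcaaccacaccattaag

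The first lies at chr16:38486772-38486831 and the second at chr16:38479343-38479402, both on the plus strand. The first probe had ratios of -0.13, -0.079 and -0.013 in WT and 0.10, 0.013 and 0.028 in c-Maf KO. The groups were apart by 0.027 only. The second probe had ratios of -0.46, -0.089 and -0.083 in WT and 0.083, 0.31 and 0.53 in c-Maf KO. WT replicate 1 was the low sample there. The differences were 0.12 (95% interval -0.034 to 0.27, adjusted p = 0.501) and 0.52 (0.14 to 0.90, 1.43-fold, adjusted p = 0.301). The second probe's signal was -3.60, -3.23 and -3.24 in WT and -2.84 and -2.60 in c-Maf KO, close to the background limit. With another background correction (normexp) its 5-array difference was 0.14 instead of 0.63. The second probe minus the first differed between genotypes by 0.40 (exact permutation p = 0.2, 0.333 after adjustment), with overlapping groups; no p under 0.1 is possible with 3 against 3 samples.

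Cd86 had ratios of 0.13, -0.037 and 0.10 in WT and -0.18, 0.037 and -0.22 in c-Maf KO. WT replicate 2 lay below c-Maf KO replicate 2. The difference was -0.19 (95% interval -0.42 to 0.042, adjusted p = 0.485). Its second probe was not well above background on any array, so no fold is given for it. Within each sample, Cd86 minus the first Cd80 probe was 0.26, 0.042 and 0.12 in WT and -0.28, 0.024 and -0.25 in c-Maf KO. This balance was lower in c-Maf KO by a mean of 0.31 without overlap (exact permutation p = 0.1, 0.25 after adjustment), but c-Maf KO replicate 2 lay only 0.018 below WT replicate 2.

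Icosl, the ligand of the T cell receptor ICOS, had the widest spread. Its ratios were 0.017, -0.60 and 0.13 in WT and -0.31, 0.34 and -0.017 in c-Maf KO. The groups overlapped throughout (difference 0.15, 95% interval -0.45 to 0.75, adjusted p = 0.834). Without WT replicate 2 the difference was -0.072 and without c-Maf KO replicate 2 it was -0.015. Its second probe was not well above background on any array.

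Cd276 encodes B7-H3, a B7 protein whose T cell receptor is not settled. Its ratios were -0.066, -0.023 and 0.023 in WT and 0.48, 0.43 and -0.12 in c-Maf KO. c-Maf KO replicates 1 and 2 were high, and replicate 3 lay below every WT sample. The difference was 0.29 (95% interval -0.12 to 0.69, adjusted p = 0.539). Without c-Maf KO replicate 2 that of the 5 arrays was -0.086, which rests on 1 c-Maf KO array. The probe's stated span on mm9 covers 44 of its 60 bases.

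Cd40, the receptor through which helper T cells activate antigen-presenting cells, had ratios of 0.18, 0.16 and -0.038 in WT and 0.038, -0.038 and -0.038 in c-Maf KO. WT replicates 1 and 2 were high and WT replicate 3 was at the level of c-Maf KO. The difference was -0.11 (95% interval -0.31 to 0.082, adjusted p = 0.599), on a signal of 0.70, 0.67 and 0.46 in WT and 0.46 and 0.48 in c-Maf KO.

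Ido1, for indoleamine dioxygenase, has 1 probe, which was not well above background on any array. Its signal was -6.20, -5.33 and -6.29 in WT and -6.15 and -6.29 in c-Maf KO, under the limit of -4.36 to -4.18, so no fold is given. WT replicate 2 was the highest, still under the limit.

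**Figure D3:**
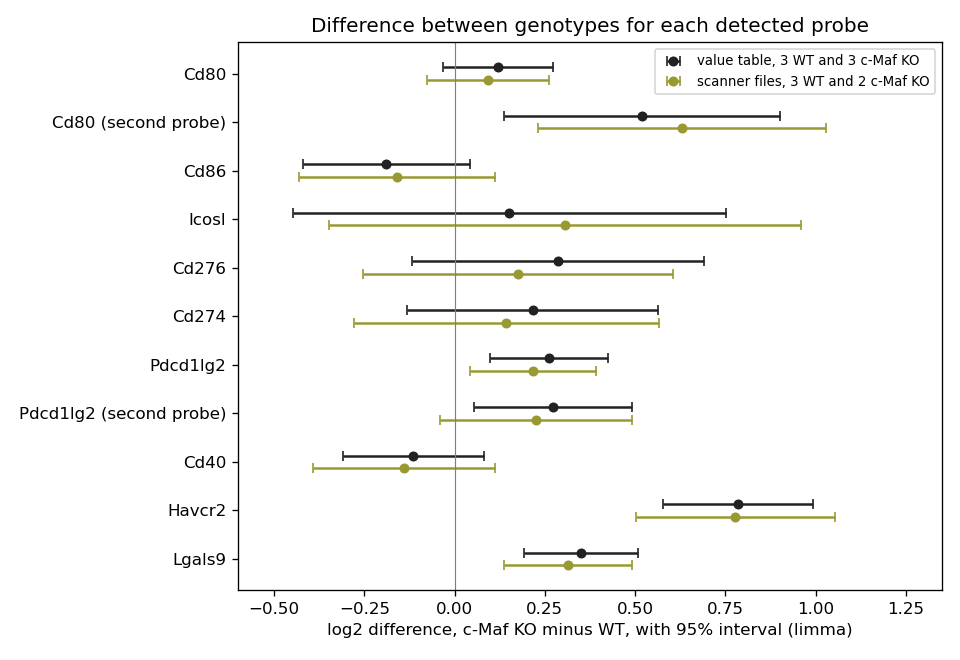
Log2 difference, c-Maf KO minus WT, with its 95% interval from limma (x axis) for each of the 11 detected probes (y axis), from the value table in black (3 WT, 3 c-Maf KO) and from the scanner files in green (3 WT, 2 c-Maf KO). The intervals of Havcr2, Lgals9, the first Pdcd1lg2 probe and the second Cd80 probe lie above 0 in both; that of the second Pdcd1lg2 probe lies above 0 in the value table only, and the other 6 probes' intervals include 0.

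The genes around these ligands were taken from 9 lists, of which no gene passed the adjusted threshold in either direction. In the value table the median difference of each list lay between -0.13 and 0.034, against 0.0017 over all 20251 genes, of which 11.1% lay wholly above and 8.87% wholly below WT. On the 5 arrays the medians lay between -0.18 (T cell receptors, 5 genes) and 0.032. The CD40 signalling list had the lowest median in the value table (-0.13; -0.12 on the arrays): 12 of its 15 genes were negative, 5 of 15 lay wholly below WT and 1 of 15 (Traf1) above. Traf6, an adaptor that carries the CD40 signal to NF-kB, measured -0.31 (adjusted p = 0.257). Rela, the p65 subunit of NF-kB, measured -0.18 (adjusted p = 0.372), and Relb, a subunit of the noncanonical arm, measured -0.26 (adjusted p = 0.382). No gene of the TNF superfamily list (5 of 11 detected) and none of the T cell receptors list (5 of 17 detected) lay apart; Ctla4, Icos and Pdcd1 were not detected.

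Among other B7 and butyrophilin genes, 7 of 11 were detected, 1 above WT and 1 below. Vsig4, an inhibitory B7-related receptor of tissue macrophages, measured 1.62 (adjusted p = 0.385). Its ratios were -0.33, -0.43 and -0.43 in WT and 0.33, 0.63 and 2.70 in c-Maf KO, so c-Maf KO replicate 3 stood far above the others. Ermap, a butyrophilin-like protein, measured -0.27 (adjusted p = 0.350). The TIM list had 5 of 8 detected genes, of which Bag6, whose product binds the tail of Tim-3, (-0.19) and Hmgb1, an alarmin that Tim-3 binds, (-0.096) lay wholly below WT; Havcr1, Timd2 and Timd4 were not detected. Of the galectins, Lgals3 (-0.11) lay below WT and the other 4 detected genes overlapped.

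In the interferon-gamma list 15 of 16 genes were detected, without Ifng. Of these 15, 1 lay wholly above WT and 1 wholly below, against 11.1% and 8.87% of all genes. They were Cops5, a deneddylase subunit linked to PD-L1 stability (0.092), and Ifngr1, the receptor's ligand-binding chain (-0.12). The tryptophan and kynurenine list, of genes around Ido1 in the pathway, had 16 of 22 detected, 2 wholly above WT and 2 wholly below. Cyp1b1, a target of the kynurenine-sensing aryl hydrocarbon receptor, measured 1.06 (adjusted p = 0.163), with ratios of -0.30, -0.89 and -0.70 in WT and 0.33, 0.30 and 0.64 in c-Maf KO. Ahrr, that receptor's repressor and also a target, measured -0.35 (adjusted p = 0.290), and Wars, the tryptophan tRNA ligase, -0.13. The Cyp1b1 ratios ranked the 6 samples in the same order as the mean ratio of the stromal markers described below. A link between them was not tested. Of the inhibitory ligands and enzymes, 20 of 23 were detected, 4 above WT (Ptgs2 among them) and 3 below. Ptgs2, the inducible prostaglandin synthase, measured 1.13 (adjusted p = 0.293). It was well above background on 2 arrays only, those of c-Maf KO. It was thus kept through the group where it was high, and the size of its difference rests on WT values not well above background. Arg1, which depletes arginine, measured 0.76 (adjusted p = 0.189) and Cd200, a ligand that restrains myeloid cells, 0.54 (adjusted p = 0.246).

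**Figure D4:**
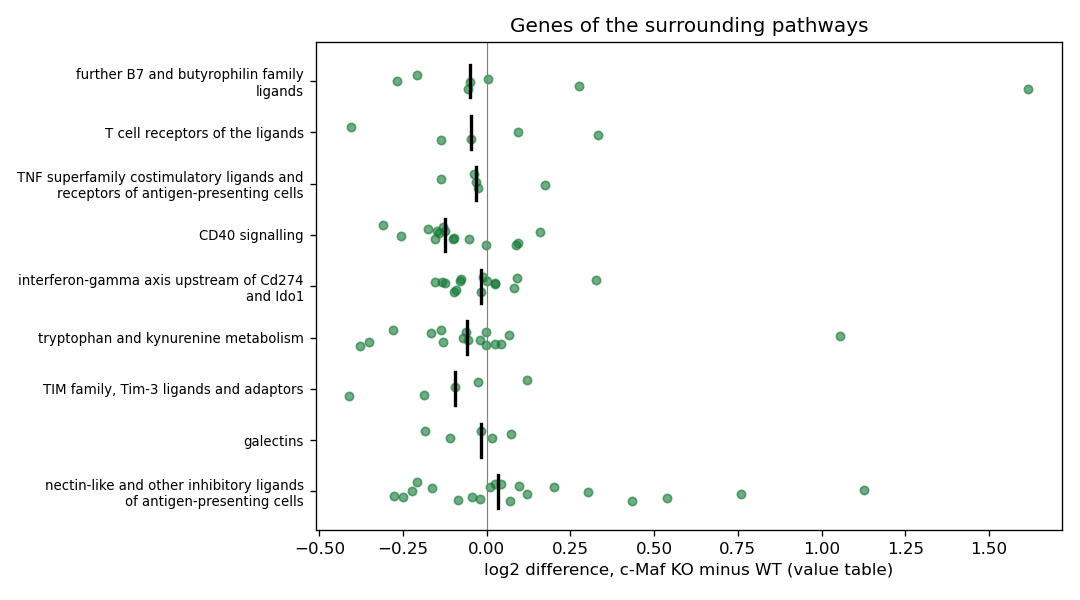
Log2 difference, c-Maf KO minus WT, in the value table (x axis) for each detected gene (points) of 9 lists (y axis), with a bar at each list's median; none passed the adjusted threshold. List medians run from -0.13 (CD40 signalling) to 0.034 (inhibitory ligands), and Vsig4, Ptgs2 and Cyp1b1 lie farthest to the right. Ptgs2 was well above background on the c-Maf KO arrays only.

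None of the genes of 12 marker lists passed the adjusted threshold, but some lay apart by genotype. All 13 detected stromal markers of 14 were positive, against 50.65% of all genes, with a median difference of 0.91. Of these 13, 10 lay wholly above WT and none below, against 11.1% and 8.87% of all genes. Their mean ratio was -0.080, -0.98 and -0.67 in WT and 0.17, 0.16 and 0.55 in c-Maf KO. Their summed signal, in multiples of the array's 75th percentile, was 107.4 to 186 in WT and 243 to 268 in c-Maf KO; Sparc, a matrix glycoprotein, and Tagln, a smooth muscle protein, were among them (0.87 and 0.71). WT replicate 1 was the WT sample nearest to c-Maf KO for these markers. It was also nearest for Lgals9 (-0.13) and both Pdcd1lg2 probes (-0.081 and -0.040), while WT replicate 2 was nearest for Havcr2 (-0.30) and WT replicate 3 for both Cd80 probes (-0.013 and -0.083). Of 6 monocyte markers 5 were detected and 3 (Ly6c1, Ccr2 and Plac8) lay above WT, where 11.1% of all genes did. The mean ratio of the 5 was -0.41 to -0.16 in WT and 0.20 to 0.31 in c-Maf KO. The monocyte sum was 615 to 677 in WT and 600 to 605 in c-Maf KO, and its brightest members are Chil3 (-0.062) and F10 (-0.19). Their part in the differences of Havcr2, Lgals9, Pdcd1lg2 and Cd80 was not tested. Macrophage markers had a median difference of -0.19, with 5 of 11 wholly below WT and 1 above, against 8.87% and 11.1% of all genes. The groups overlapped for the 2 brightest, Csf1r (-0.088) and Cd68 (-0.054). Of 9 T cell markers 4 were detected, overlapping in every case (Cd3e -0.17, Cd2 0.22), and Cd3d, Cd3g, Cd8a, Bcl11b and Trat1 were not well above background on any array; of 5 NK cell markers none was detected on the needed 2 arrays. The mean ratio of mast cell and basophil markers ranged from -1.20 to 1.47 and that of neutrophil markers from -0.47 to 0.57, each highest in WT replicate 3 and next in c-Maf KO replicate 2. Prss34 and S100a9 had this order too, but Tpsb2 was lowest in c-Maf KO replicate 2 (-0.34) and Elane in WT replicate 3 (-0.42). Of 8 mast cell and basophil markers, 3, 3 and 6 were well above background in WT. In c-Maf KO replicates 2 and 3 the numbers were 5 and 1. Their lowest mean, in c-Maf KO replicate 3, thus holds mostly values not well above background. Dendritic cell markers, detected for 7 of 9, had a median difference of -0.038 (Itgax -0.045, Siglech -0.18). Of the 7, 2 were positive (Ccr7 0.44 and Cd209a 0.35), both highest in c-Maf KO replicate 2 (ratios of 1.46 and 1.01). None of the 7 lay wholly above WT and 2 (Flt3 and Siglech) lay wholly below, against 11.1% and 8.87% of all genes. The mean ratio of the 7 was 0.032, 0.037 and 0.11 in WT and -0.067, 0.37 and -0.092 in c-Maf KO. The remaining lists had few detected genes: 3 of 7 for B cells (median -0.23, Cd22 -0.31, Cd79a -0.018), 2 of 6 for endothelium (median -0.15, Kdr -0.14, Pecam1 -0.15), 2 of 6 for red cells (median 0.045, Epor 0.052, Hba-a1 0.039) and 1 of 5 for hepatocytes (Afp 0.16).

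Promoter sequence (the 250 bases before the gene's start, from RefSeq on GRCm38.p6) was available for 7 of the 10 genes. Those of Havcr2 (chr11:46454681-46454930, plus strand) and Lgals9 (chr11:78984925-78985174, minus strand), the genes with the smallest p-values, are printed with matches of the motifs searched in capitals.

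Havcr2 promoter: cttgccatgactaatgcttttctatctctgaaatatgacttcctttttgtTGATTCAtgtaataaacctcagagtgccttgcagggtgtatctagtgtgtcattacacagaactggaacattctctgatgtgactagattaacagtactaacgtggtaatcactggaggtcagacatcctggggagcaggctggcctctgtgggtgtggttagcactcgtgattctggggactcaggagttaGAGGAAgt

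Lgals9 promoter: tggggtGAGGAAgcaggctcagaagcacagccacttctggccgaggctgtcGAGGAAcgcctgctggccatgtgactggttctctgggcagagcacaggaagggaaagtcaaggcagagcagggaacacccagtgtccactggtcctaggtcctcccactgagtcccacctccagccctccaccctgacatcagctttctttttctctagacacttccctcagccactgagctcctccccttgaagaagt

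Motifs were searched on both strands. The ETS core GAGGAA, which PU.1 reads, was in 4 of 7 promoters, against 23.3% of 32851 promoters of the same length: at -8 to -3 from the start of Havcr2, at 2 places in Lgals9, and once each in Pdcd1lg2 and Cd276. The AP-1 site TGANTCA, which reads the same on both strands, was in 2 of 7 against 6.75%, at -200 to -194 in Havcr2 and at -42 to -36 in Cd80. The large Maf half-site TGCTGA was in 1 of 7, that of Icosl, against 16.1%. Both palindromic Maf recognition elements (AP-1 type and CRE type), the interferon-gamma site TTCNNNGAA and the NF-kB site were in none of the 7, against 0.00609% each, 7.02% and 1.21%. The Maf elements contain the half-site, and the AP-1 type also contains the AP-1 site. A match describes these letters in this window and is no binding site.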

How the data were processed

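Total RNA was hybridised to Agilent arrays. The authors deposited spot intensities from Feature Extraction 10.7.3.1, according to the submitters' processing notes. Background correction was off and detrending (spatial, multiplicative) on, per the file headers. The authors' deposited value table holds linear ratios of each sample to its probe's median over 6 samples: all 55821 probes have a median log2 ratio within 0.01 of 0, and the values follow the scanner signals (column medians -0.057 to 0.068). For c-Maf KO replicate 1 this table was the source used; its scanner values were not used here.

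From the intensities, 134 to 167 flagged spots of 59305 per array were left out, the 75th percentile was divided out, log2 was taken and spots of a probe were averaged. Probes well above background on at least 2 of 5 arrays were fitted with lmFit and eBayes (limma 3.58.1, R 4.3.3; statmod 1.5.0 for the robust alternative), c-Maf KO minus WT, on 5 arrays and on log2 of the ratios of 6 samples, adjusted by Benjamini-Hochberg. The procedure was tested on simulated data, where 62% of probes changed by 1 on the log2 scale were called in each fit. Smaller changes were not simulated, and the largest difference of the genes described here was 0.78. A gene in a list was represented by its brightest kept probe; exact two-sided permutation tests compared pairs of probes. Alternatives were scaling to detected probes, quantile normalization, normexp (offset 50), filters, 1 probe per gene, trend and robust eBayes, a replicate block, each replicate left out, and, chosen after the data were seen, WT replicates 1 and 3 averaged, because a tag shared by their file names leaves it unknown whether they are separate samples.

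The members and the 9 pathway and 12 marker lists were chosen with earlier results of these data known. Named are all member and Maf probes and called genes. Of each pathway list up to 3 genes of smallest p without overlap are named, and of each marker list the 2 brightest. Traf1, Vsig4's sample values and absent genes were added after their values were seen. So were the monocyte genes besides Chil3 and F10, and the dendritic cell genes besides Itgax and Siglech. Gene symbols are the array's own, with RefSeq's current symbol for 28020 probes. Probe coordinates are mm9 and promoter coordinates GRCm38.p6.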

Additional observations from a re-analysis of the deposited data

How the results depend on the processing

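Over 14 settings with the scanner files and 13 with the value table, 150 of 152 and 139 of 141 differences of these probes kept their direction and side of the threshold. The exceptions were Havcr2, Cd276 and Icosl. Havcr2 was the 1 member called, on the 5 arrays with trend and robust eBayes (adjusted p = 0.0132). Over the value table's settings its adjusted p was 0.061 to 0.322. Cd276 reversed on the 5 arrays without c-Maf KO replicate 2 (-0.086) and was 0.44 without c-Maf KO replicate 3. Each of these 2 fits sets 3 WT arrays against 1 c-Maf KO array. Icosl reversed in the value table (-0.072 without replicate 2 of WT, -0.015 without that of c-Maf KO) and was 0.31 at most. Called member probes were 0 with every other setting, and 0 to 0 with a replicate left out. Over all probes, 7 calls on the 5 arrays became 22 with normexp, 1 with probes above background on all 5 arrays, 124 with trend and robust eBayes, 0 with the replicate block, 2 with WT replicates 1 and 3 averaged, and 2 to 18 with a replicate left out. With the authors' ratios 6 calls became 2 without a filter, 50 with trend and robust eBayes, and 2 with WT replicates 1 and 3 averaged. With a replicate left out they became 2 to 31 (31 without WT replicate 1). The replicate block gave 7 calls, none higher in c-Maf KO, where 3 of the 6 in the main fit were. On the 5 arrays WT replicate 1 has no same-numbered c-Maf KO array. The block there gave the differences of the fit without WT replicate 1 (Havcr2 0.75 in both). What moved the other counts was not tested. Deviations of same-numbered samples correlated weakly (r of -0.0043, -0.044 and 0.081), against -0.07 to 0.075 for samples of different number. This cannot settle whether the numbers mark pairs, which the labels do not say. The main fits treated the samples as unpaired. Few arrays limit the precision; Ido1 and the second probes of Cd86 and Icosl lie below the background limit.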
